A study of Oryza sativa with 6 samples.

Results

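The short arms of rice chromosomes 11 and 12 carry a segmental duplication near their ends, and the peaks of BG4-DNA-IP-seq were described here in a window of 2 Mb on each chromosome. A peak was a member when its summit lay from 500000 to 2500000 on chromosome 11 or 12 of MSU v7.0. This rule used the position only, and it found 2690 of the 289038 peaks of the 4 deposited lists (0.931%), with 1344 in the chromosome 11 copy and 1346 in the chromosome 12 copy. Peaks of different libraries at the same place were counted separately in these totals. That the windows are copies of each other is background knowledge on the rice genome. It could not be checked here, since neither the sequence nor the gene annotation of MSU v7.0 was used.

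G-quadruplexes (G4s) are four-stranded DNA structures that form where runs of guanines stack into planar tetrads, which are held together by potassium ions. BG4 is a single-chain antibody that recognises the folded structure. PEG is a crowding agent that favours compact DNA folds, and PDS (pyridostatin) is a small ligand that stacks on the tetrads and stabilises them. Duplicated segments are of use for such a survey because both copies derive from the same ancestral stretch, and each has since gained its own insertions, deletions and transposable elements. In grasses this pair of arm ends is known as a region in which the copies have stayed unusually alike, partly by gene conversion. Reads from sequence that is identical in both copies cannot be assigned to a single copy.

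Genomic DNA came from the aerial parts of wild-type 2-week-old seedlings of the cultivar Nipponbare. The fragmented DNA was denatured and allowed to refold in a potassium buffer, so the peaks report which fragments can fold in vitro and not what was folded in the cell. According to the methods, 150 mM KCl was present in both conditions, and the buffer of the antibody incubation held 40% PEG for K+PEG or 5.0 μM PDS for K+PDS. Each condition had 2 libraries, described in the methods as biological replicates, and the 2 input samples were not analysed here. Peaks were called by the authors in each library with MACS2 at a p-value of 0.01, against a local background. The reads used for calling were recovered from the lists, assuming an extension to 200 bp. They numbered 7.90 M and 13.3 M under K+PEG and 5.99 M and 7.55 M under K+PDS. A pair of values for a condition is given with replicate 1 first here and in what follows. The name of every K+PDS peak contains the word uniq and no K+PEG name does. The methods mention no such filter for the BG4 data. Condition and a possible filter coincide, so their parts in any difference between K+PEG and K+PDS cannot be told apart.

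Both copies carried nearly the same number of peaks. The chromosome 11 copy had 381 and 385 peaks under K+PEG, compared with 270 and 308 under K+PDS. The chromosome 12 copy had 357 and 407, compared with 268 and 314. Averaged over replicates, the numbers were 383 ± 2.83 and 382 ± 35.4 under K+PEG and 289 ± 26.9 and 291 ± 32.5 under K+PDS for chromosomes 11 and 12 (SD, n = 2). The copy on chromosome 11 was ahead in replicate 1 of both conditions, and the copy on chromosome 12 in the other two libraries. The mean difference of -0.25 peaks per Mb was far smaller than the spread of 12 to -11 peaks per Mb between libraries (exact sign-flip permutation test over the 4 libraries, two-sided, p = 1). No p below 0.125 can come from 4 libraries.

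In each library, the copies held fewer peaks per Mb than the rest of the same chromosomes. Both copies together held 184.5 and 198.0 peaks per Mb under K+PEG, compared with 191.3 and 218.1 in the rest of chromosomes 11 and 12. Under K+PDS they held 134.5 and 155.5 peaks per Mb, compared with 179.8 and 183.7. The density in the copies was thus 0.965 and 0.908 times that of the rest under K+PEG, and 0.748 and 0.846 times under K+PDS. The difference had the same sign in 4 of 4 libraries, with a mean of -25.1 peaks per Mb and the smallest p of the exact test, 0.125, so 4 libraries cannot separate it from 0 at the usual threshold. Taken singly, the copy on chromosome 11 was denser than the rest of its chromosome in 1 library, K+PEG replicate 1, with 190.5 compared with 184.1 peaks per Mb. The copy on chromosome 12 was sparser in all 4, most of all in K+PDS replicate 1, with 134 compared with 195.9. A lower density was not particular to the copies, since the same window was sparser on most other chromosomes too. On chromosome 3 it averaged 148.9 peaks per Mb over the 4 libraries, compared with 156.6 to 216.7 in the rest. The windows of chromosomes 4 and 9 were denser than the rest, with 213 and 230. Among the 12 windows, chromosomes 11 and 12 took the places 9 and 8 in density.

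**Figure D1:**
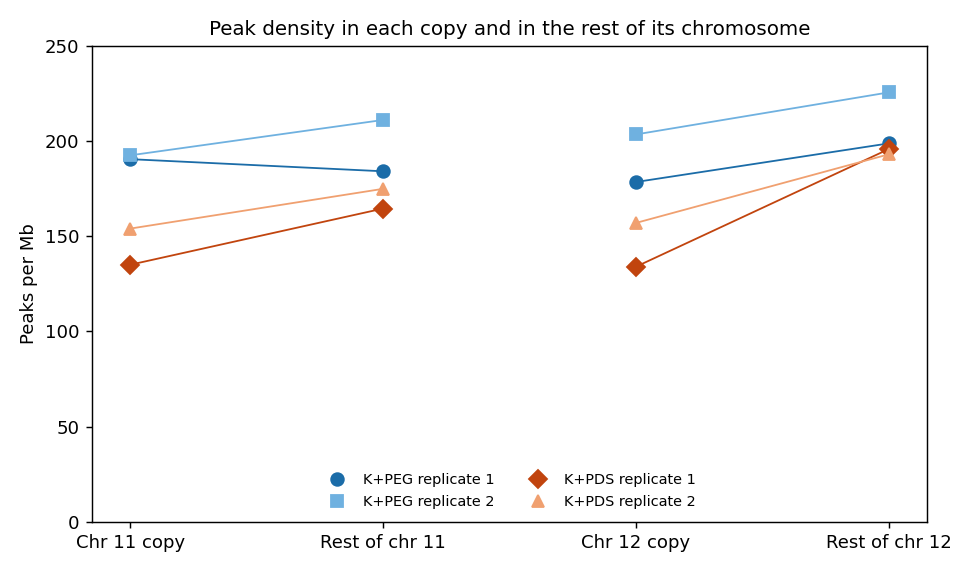
Peaks per Mb (y axis) in each copy and in the rest of its chromosome (x axis), with 1 point per library and a line joining the values of a library. K+PDS replicate 1 falls from 195.9 peaks per Mb in the rest of chromosome 12 to 134 in the copy, and K+PEG replicate 1 on chromosome 11 is the only line that is higher in the copy.

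The copies took a larger share of both K+PEG lists than of either K+PDS list. Out of 1000 peaks of a library, 10.1 and 9.66 lay in the copies under K+PEG, and 8.29 and 9.02 under K+PDS. Both K+PEG values were above both K+PDS values, with means of 9.87 ± 0.299 and 8.66 ± 0.513 (SD, n = 2). The difference of 1.22 peaks per 1000 had p = 0.333 in the exact permutation test (two-sided), the smallest that 2 libraries against 2 can give. In the narrower window from 1000000 to 2000000 the difference was 0.309 peaks per 1000. In absolute numbers, the copies held 765 ± 38.2 peaks under K+PEG, compared with 580 ± 59.4 under K+PDS (SD, n = 2), a ratio of 1.32. Over the 4 pairings of a K+PEG with a K+PDS library, this ratio ranged from 1.19 to 1.47. It was 1.16 over all peaks of the genome. The ratio depended on how many peaks were kept. With lists cut to equal length, for which the ratio of the genome is 1 by construction, it was 1.16 in the copies, and when weaker peaks, those below 5 on the −log10 p scale, were left out it was 1.60, compared with 1.42 in the genome.

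Each copy had a higher ratio of K+PEG to K+PDS peaks than the same window of any other chromosome. The ratio was 1.33 on chromosome 11 and 1.31 on chromosome 12. On the other 10 chromosomes it ran from 1.05 on chromosome 4 to 1.27 on chromosome 6. Outside the window, the ratio was 1.16 on chromosome 11 and 1.09 on chromosome 12. The number of K+PEG peaks in the copies was ordinary, in the places 5 and 6 among the 12 windows, whereas the number of K+PDS peaks was low, in the places 10 and 9. The lead was small, with 1.33 and 1.31 compared with 1.27, and did not hold in every setting. In the 4 pairings of a K+PEG with a K+PDS library, which share libraries, chromosome 11 took the places 1, 1, 4 and 2. In the same order, chromosome 12 took the places 4, 3, 1 and 1. Without K+PEG replicate 2, chromosome 12 fell to place 5 with 1.23. With the stricter threshold on −log10 p, chromosome 11 fell to place 6 with 1.53, and when the window was narrowed to 1000000 to 2000000 the copies took the places 3 and 5. These ranks are a description of the windows, and their difference was not tested.

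**Figure D2:**
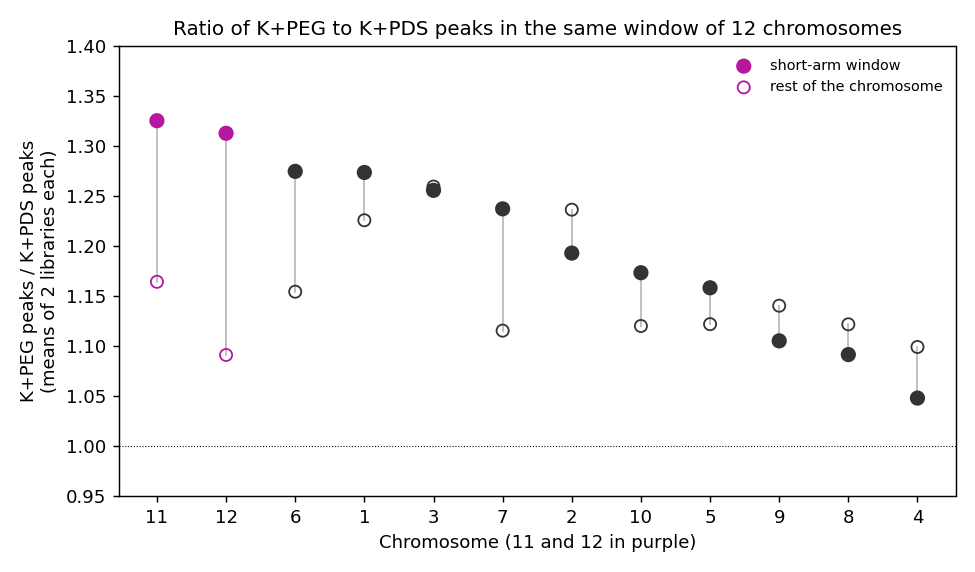
Ratio of K+PEG to K+PDS peaks (y axis, means of 2 libraries per condition) for the 12 chromosomes (x axis), in the short-arm window (filled) and in the rest of the chromosome (open). Chromosomes 11 and 12, in purple, have the highest window values, 1.33 and 1.31, and chromosome 4 the lowest, 1.05.

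Along the segments, peaks were spread unevenly, and the 4 libraries followed a common course within each copy. In the chromosome 11 copy, the first 250 kb held most peaks on average, with 66 and 64 under K+PEG and 46 and 51 under K+PDS. The stretch from 1.25 to 1.75 Mb was the poorest, with 30 and 34 and then 34 and 30 K+PEG peaks per 250 kb, and 23 and 29 and then 22 and 24 K+PDS peaks. In the chromosome 12 copy, the richest 250 kb lay from 2 to 2.25 Mb, with 54 and 66 peaks under K+PEG, compared with 45 and 45 under K+PDS. By the mean of the 4 libraries, its poorest 250 kb was that from 1.25 to 1.5 Mb, with 38 and 38 K+PEG peaks and 31 and 30 K+PDS peaks. In neither condition alone was this bin the poorest. Under K+PEG that was the bin from 1.5 to 1.75 Mb, with 30 and 43 peaks, and under K+PDS the bin from 0.75 to 1 Mb, with 23 and 35. A dip near the middle common to the 4 libraries was thus seen on chromosome 11 and not on chromosome 12.

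K+PEG exceeded K+PDS almost throughout. In 15 of the 16 bins of 250 kb, the lower K+PEG count was above the higher K+PDS count. The exception was the bin from 1.5 to 1.75 Mb of the chromosome 12 copy, with 30 and 43 peaks under K+PEG, compared with 36 and 39 under K+PDS. The highest ratio of K+PEG to K+PDS fell at the same coordinates in both copies, from 0.75 to 1 Mb. There the chromosome 11 copy had 57 and 66 peaks compared with 37 and 40, a ratio of 1.60, and the chromosome 12 copy 45 and 49 compared with 23 and 35, a ratio of 1.62. The excess was not confined to the windows. It was seen in 4 of 4 bins on the distal side, with a ratio of 1.41, and in 10 of 12 bins on the proximal side up to 4 Mb, with a ratio of 1.31. The K+PEG lists were longer over the whole genome, with a ratio of 1.16. The share of such bins in the genome was not counted, so the 15 of 16 bins are not shown to be particular to the copies.

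**Figure D3:**
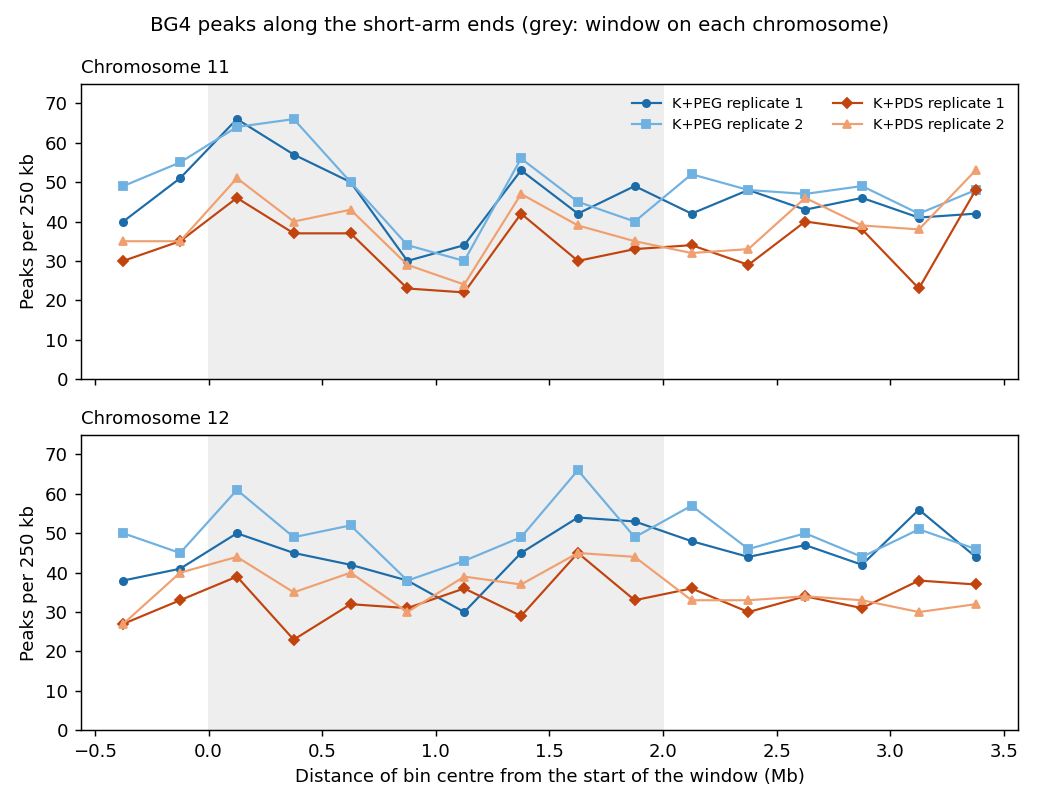
Number of peaks per 250 kb (y axis) against the distance of the bin from the start of the window in Mb (x axis), with 1 line per library and the windows in grey. The K+PEG lines lie above the K+PDS lines in 15 of 16 grey bins, and on chromosome 11 all 4 lines dip from 0.75 to 1.25 Mb after the start, to 22 to 34 peaks per bin.

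At a scale of 100 kb, the densest stretch of the chromosome 11 copy was the first, with 37 and 34 peaks under K+PEG, compared with 29 and 28 under K+PDS. The emptiest lay from 1.3 to 1.4 Mb, with 11 and 12 compared with 7 and 11 peaks. In the chromosome 12 copy, the densest stretch lay from 1.7 to 1.8 Mb and held 21 and 24 peaks compared with 22 and 32. It was closely followed by that from 1 to 1.1 Mb, with 28 and 33 compared with 15 and 22. The former was richest in K+PDS replicate 2, but the counts of the conditions overlapped there. In the latter, both K+PEG counts were above both K+PDS counts. The emptiest 100 kb of this copy lay from 1.2 to 1.3 Mb, with 6 and 10 compared with 11 and 8 peaks. The limits of the window were set by coordinate, and the number of peaks changed at a pair of them. At the start on chromosome 11, the 50 kb inside held 24 and 24 peaks under K+PEG, compared with 19 and 21 under K+PDS, and the 50 kb outside held 8 and 11 compared with 10 and 9. At the end on chromosome 12, the change was the other way in each library, with 7 and 6 inside and 8 and 12 outside under K+PEG, and 4 and 6 inside and 11 and 12 outside under K+PDS. At the limits that remain, the end on chromosome 11 and the start on chromosome 12, the counts were 6 to 14 inside and 7 to 11 outside.

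The spacing of neighbouring summits was similar in the copies. The median distance was 3388 and 3501 bp under K+PEG and 3952 and 3697 bp under K+PDS on chromosome 11. On chromosome 12 it was 3721 and 3343 bp under K+PEG and 3381 and 3468 bp under K+PDS. Spacing was wider on chromosome 11 in 3 of 4 libraries and narrower in K+PEG replicate 1, with a mean difference of 156.1 bp (exact sign-flip permutation test, two-sided, p = 0.5). It was 17.8 bp without K+PDS replicate 1 and 319.2 bp without K+PEG replicate 1. The distances were strongly skewed. In K+PDS replicate 1, which was the shallowest, the lower quartile on chromosome 11 was 1279 bp and the longest distance 54.0 kb.

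When the peaks of all 4 libraries were merged, the chromosome 11 copy had 538 sites and the chromosome 12 copy 576. They covered 15.6% and 15.2% of the windows, compared with 18.3% of the genome. The median stretch between sites was 1778 bp on chromosome 11 and 1681 bp on chromosome 12. Stretches of at least 10 kb without a peak in any library numbered 34 and 26. The longest of these lay from 2392523 to 2424695 on chromosome 11 and measured 32.2 kb. The next on this chromosome, from 1266128 to 1286076, measured 19.9 kb. On chromosome 12, the longest ran from 1561167 to 1581975 (20.8 kb) and from 1281582 to 1300439 (18.9 kb). The second stretches of both chromosomes thus overlapped in part by coordinate, whereas the longest stretches lay far apart. Equal coordinates do not make the stretches counterparts of each other. The lists hold no value below the threshold, so an empty stretch was not shown to lack signal.

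Median peak strength was slightly higher in the chromosome 11 copy in each library. Strength is given as the fold enrichment of the deposited lists, which is the number of reads at the summit over the local background, each plus 1. The median was 3.68 and 3.75 under K+PEG and 3.80 and 3.29 under K+PDS on chromosome 11. On chromosome 12 it was 3.64 and 3.61 under K+PEG and 3.77 and 3.13 under K+PDS. The chromosome 11 copy was higher in 4 of 4 libraries, by 0.093 on average (exact sign-flip permutation test, two-sided, p = 0.125, its smallest value). The difference ranged from 0.032 in K+PDS replicate 1 to 0.157 in K+PDS replicate 2, and the median number of reads at a summit in the copies was between 16 and 33. Compared with all other peaks of its library, the median of both copies was 0.969 and 1.03 times as high under K+PEG and 1.00 and 0.994 times under K+PDS. This relative strength did not separate the conditions (exact permutation test, two-sided, p = 1).

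The median peak length was also larger on chromosome 11 in 3 of 4 libraries. The median length was 348 and 399 bp under K+PEG and 384 and 366.5 bp under K+PDS on chromosome 11, and 349 and 374 bp compared with 347 and 340 bp on chromosome 12. The bases covered were higher on chromosome 11 in every library, with 165.2 and 203.6 kb under K+PEG and 138.3 and 141.9 kb under K+PDS, against 158.8 and 188.3 kb and 119.9 and 132.6 kb on chromosome 12. Peaks of 2 kb or more were seen in the chromosome 11 copy alone, where K+PEG replicate 2 had 1 and the K+PDS libraries had 3 and 2. The longest, from 918559 to 921782 in K+PDS replicate 1, measured 3224 bp with a fold enrichment of 4.82. Another broad region was called in both K+PDS libraries, from 994733 to 997513 in replicate 1 at 8.58-fold and from 994666 to 997444 in replicate 2 at 6.99-fold. K+PEG replicate 2 had a peak from 995089 to 997460 there, at 3.18-fold. On chromosome 12 the longest peaks measured 1855 and 1845 bp and were the K+PDS peaks of a single site, from 2267799 to 2269653 in replicate 1 and from 2267393 to 2269237 in replicate 2. In K+PEG replicate 1, the peak at this site had a fold enrichment of 3.58, compared with 6.33 and 7.21 under K+PDS. Lengths were examined after the values had been seen, and their difference between the copies was not tested.

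The strongest single peak of each copy came from K+PEG replicate 2. On chromosome 12 the highest fold enrichment was 15.3, from 135 reads in K+PEG replicate 2, at 1346193 to 1346748. On chromosome 11 it was 15.04, from 127 reads in the same library, at 942013 to 943309. The next highest on chromosome 11, with 14.4 and 13.4, were also peaks of K+PEG replicate 2, at 1435852 to 1436409 and 1831655 to 1832134. This library is the deepest of the 4. The highest value of a K+PDS library was 13.0 on chromosome 11 and 11.1 on chromosome 12, both in K+PDS replicate 1.

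Reproducible peaks were derived as in the methods, as segments of at least 1 bp shared by both replicates, and a specific peak is a reproducible peak that overlaps none of the other condition. The copies held 586 reproducible K+PEG peaks, 300 on chromosome 11 and 286 on chromosome 12. Of these, 324 (55.3%, 95% Wilson interval 51.2 to 59.3%) were PEG-specific, compared with 50.1% of all reproducible K+PEG peaks of the genome and 47.4% in the rest of both chromosomes. The share was 54.0% on chromosome 11 and 56.6% on chromosome 12, with exactly 162 PEG-specific peaks on each. The reproducible K+PDS peaks numbered 373, of which 116 (31.1%, 26.6 to 36.0%) were PDS-specific, compared with 35.6% in the genome and 36.9% in the rest of both chromosomes. Here the share was 28.8% on chromosome 11 (55 of 191) and 33.5% on chromosome 12 (61 of 182). The intervals cover counting error only and treat peaks as independent. The PEG-specific share of the genome lay just below the interval of both copies together. It lay inside the interval of chromosome 11 alone, 48.3 to 59.6%, and below that of chromosome 12, 50.8 to 62.3%. In the window from 1000000 to 2000000 the PEG-specific share was 53.5%. The PDS-specific share of the genome lay inside the interval of both copies together. Both shares depended on the definition. With a reciprocal overlap of 50% the PDS-specific share was 58.2%, compared with 57.6% in the genome, so that it was no longer below. When any peak of the other condition counted as an overlap, 24.4% of the K+PEG and 10.7% of the K+PDS peaks were specific, compared with 22.2% and 14.3% in the genome.

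The overlap of replicates was close to that of the genome. Of the K+PEG replicate 1 peaks, 77.4% on chromosome 11 and 76.5% on chromosome 12 overlapped a peak of replicate 2, compared with 79.9% over all chromosomes. For K+PEG replicate 2 the shares were 71.2% and 68.6%, compared with 69.8%. Under K+PDS, 66.3% and 65.3% of the replicate 1 peaks were shared, compared with 64.3%. For K+PDS replicate 2 the shares were 57.1% and 56.1%, below the 61.6% of the whole list. The copies differed from each other by less than 3 percentage points in every library.

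Sorted by the libraries that called them, the merged sites of the copies had shares close to those of the genome in most classes. Sites with a peak in all 4 libraries numbered 127 on chromosome 11 (23.6% of its sites) and 121 on chromosome 12 (21.0%), compared with 23.7% of all 115855 sites of the genome. Sites of both K+PEG and no K+PDS library numbered 57 (10.6%) and 67 (11.6%), compared with 10.1%. Sites of both K+PDS and no K+PEG library were few on chromosome 11, with 7 (1.30%), and numbered 20 (3.47%) on chromosome 12, compared with 3.78%. None of the 7 lay from 2 to 2.5 Mb, where chromosome 12 had 5. Sites seen in 1 library alone made up 36.1% on chromosome 11 and 38.5% on chromosome 12, compared with 36.7% in the genome. Those of K+PDS replicate 1 numbered 15 (2.79%) and 31 (5.38%), compared with 6.69%, and those of K+PEG replicate 2 numbered 48 (8.92%) and 70 (12.2%), compared with 9.55%. Those of K+PEG replicate 1 numbered 64 (11.9%) and 61 (10.6%), compared with 7.76%, so their share was above that of the genome in both copies. Those of K+PDS replicate 2 numbered 67 (12.5%) and 60 (10.4%), compared with 12.7%. Both conditions thus had a library with fewer such sites on chromosome 11. The counts of K+PDS sites are small, and their difference between the copies was not tested.

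**Figure D4:**
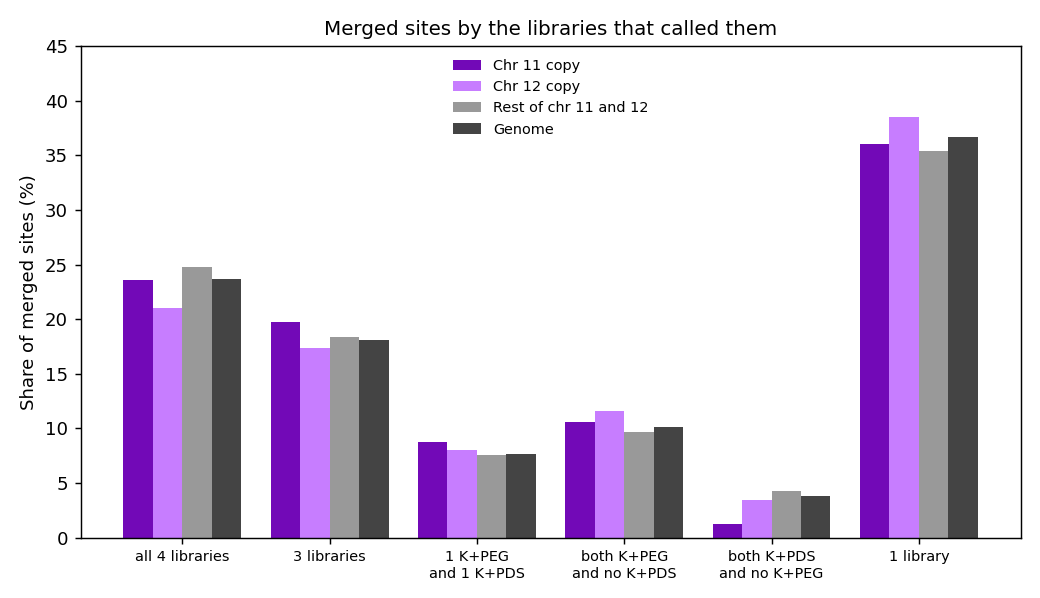
Share of merged sites in percent (y axis) by the libraries that called them (x axis), for both copies, the rest of chromosomes 11 and 12 and the genome. Sites of both K+PDS and no K+PEG library are fewest in the chromosome 11 copy, with 1.30% compared with 3.47% in the chromosome 12 copy and 3.78% in the genome.

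At the sites shared by all 4 libraries, median strength was higher under K+PEG. On chromosome 11 the median fold enrichment was 5.41 and 5.94 under K+PEG and 4.52 and 3.64 under K+PDS. On chromosome 12 it was 4.87 and 5.74 compared with 4.38 and 3.57, and in the genome 4.68 and 4.99 compared with 4.66 and 3.66. Both K+PEG libraries exceeded both K+PDS libraries at 62 of 127 sites on chromosome 11 (48.8%) and at 53 of 121 on chromosome 12 (43.8%), compared with 38.0% of such sites in the genome. The opposite order was seen at 13 (10.2%) and 18 sites (14.9%), compared with 18.4%. Fold enrichment moves with depth and background of a library, and the share of either in these counts was not tested. The summits of the 4 libraries lay at most 100 bp apart at 30 and 31 of these sites, 23.6% and 25.6%, compared with 21.5% in the genome.

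The leading sites of all 4 libraries were ranked by the fold enrichment of their weakest library. On chromosome 11, the first lay from 2356230 to 2357478, with 10.2 and 12.6 under K+PEG and 13.0 and 8.32 under K+PDS. The reads at its summits numbered 57 and 109 compared with 56 and 43. The second, from 2426575 to 2426977, had 8.74 and 10.96 compared with 12.3 and 8.13. It is a narrow site of 403 bp that lies shortly beyond the longest empty stretch of the copy. In both sites the conditions overlapped, with K+PDS replicate 1 highest and K+PDS replicate 2 lowest.

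The third site of chromosome 11, from 515718 to 517551, had 9.88 and 6.24 under K+PEG and 10.4 and 7.84 under K+PDS. The fourth, from 2065720 to 2067191, had 8.18 and 10.4 compared with 7.05 and 6.22, so that here both K+PEG values were higher. The fifth, from 1144441 to 1147266, had 6.64 and 6.18 compared with 12.6 and 9.83. It was the only one of the 5 in which both K+PDS values were higher.

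On chromosome 12, the first site lay from 1188714 to 1189635, with 10.7 and 9.09 under K+PEG and 8.80 and 5.49 under K+PDS. Its summits held 55 and 73 compared with 36 and 27 reads. The second, from 2068491 to 2070093, had 5.39 and 5.95 compared with 9.16 and 7.64, and thus was higher under K+PDS in both replicates. The third, from 933298 to 934315, had 11.1 and 14.0 compared with 8.21 and 5.25. In the first and the third site both K+PEG values exceeded both K+PDS values.

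The fourth site of chromosome 12, from 725709 to 726411, had 12.7 and 7.12 under K+PEG and 7.53 and 5.21 under K+PDS, with overlap between the conditions. The fifth, from 1800223 to 1801486, had 8.21 and 10.0 compared with 7.73 and 4.92. Ranked in this way, the chromosome 11 sites had 6.18 to 8.32 in their weakest library and the chromosome 12 sites 4.92 to 5.49. The weakest library was K+PDS replicate 2 in 7 of the 10 sites.

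Sites of a single condition had lower medians than the shared ones, in the copies as in the genome. Such sites are those that missed the calling threshold in the other condition, so lower values follow in part from the definition. In the genome the medians were 3.51 and 3.40 for K+PEG sites and 3.37 and 3.12 for K+PDS sites. Those of both K+PEG and no K+PDS library had a median fold enrichment of 3.42 and 3.67 on chromosome 11 and 3.48 and 3.16 on chromosome 12. Those of both K+PDS and no K+PEG library had 3.86 and 2.95 on chromosome 11 and 3.52 and 3.52 on chromosome 12.

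The strongest K+PEG site without a K+PDS peak on chromosome 11, from 579619 to 580421, reached 6.68 and 6.45, from 35 and 53 reads. The nearest K+PDS peak was 5851 bp away. The next, from 841048 to 841776, had 7.75 and 6.11, with a K+PDS peak no closer than 7772 bp. It lies within the 250 kb in which the ratio of K+PEG to K+PDS was highest.

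On chromosome 12, the 2 strongest K+PEG sites lay from 1612747 to 1613565, with 6.26 and 6.16, and from 1975127 to 1975670, with 6.01 and 5.99. Their nearest K+PDS peaks were 5390 and 4532 bp away. The former lies in the only bin in which the conditions overlapped.

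The strongest K+PDS sites without a K+PEG peak had lower values and a K+PEG peak closer by. On chromosome 11, the first lay from 503196 to 503556, with 3.86 and 3.64, from 16 and 18 reads, and the nearest K+PEG peak was 794 bp away. The next, from 1221268 to 1221692, had 4.07 and 3.36, with a K+PEG peak 1670 bp away. On chromosome 12, the first, from 2194742 to 2195078, had 4.92 and 4.31, and a K+PEG peak lay 153 bp from it. The next, from 2115256 to 2115532, had 4.82 and 4.02, with a K+PEG peak 943 bp away. The sites were chosen by their fold enrichment, so their values are a description. The K+PDS leaders were taken from 7 and 20 sites on chromosomes 11 and 12, and the K+PEG leaders from 57 and 67. K+PEG also had more peaks in the copies, so a K+PEG peak can lie nearer by number alone.

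**Figure D5:**
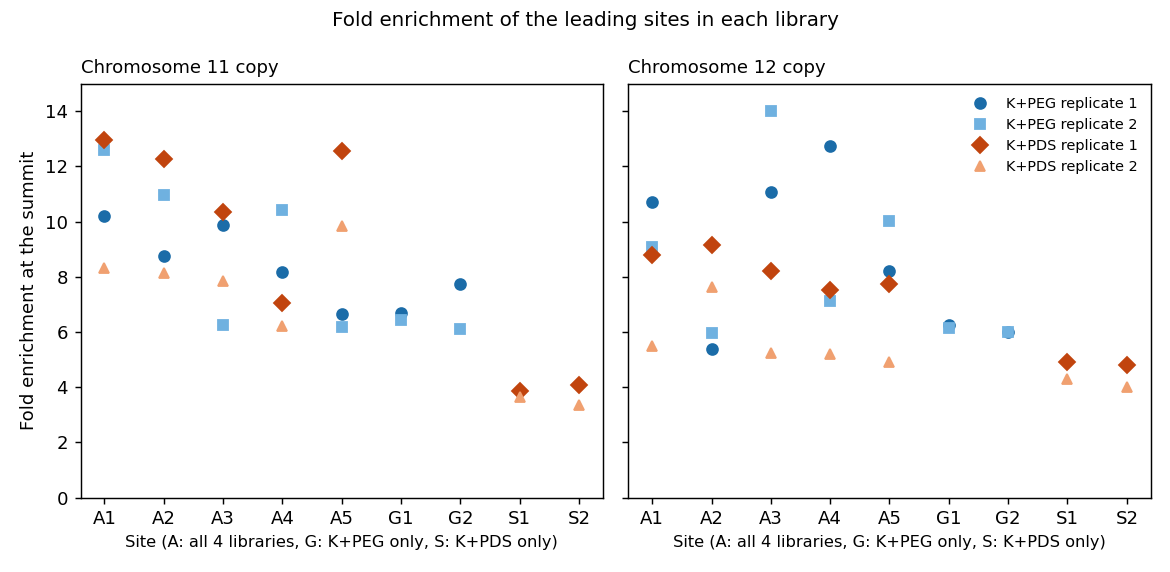
Fold enrichment at the summit (y axis) in each library for the leading sites of each copy (x axis), with A for sites of all 4 libraries, G for sites of both K+PEG and no K+PDS library and S for the reverse, numbered by rank. Sites A1 to A5 reach 5.49 at most in the weakest library on chromosome 12 and 8.32 on chromosome 11, and the S sites stay below 5.

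The order of peaks was compared between the copies in 40 bins of 50 kb, by the summed fold enrichment per bin and laid on each other by coordinate. Across bins, which share libraries and are not independent, the Spearman correlation between the copies was 0.118 for the mean of all 4 libraries. It was 0.132 and -0.034 under K+PEG and 0.163 and 0.119 under K+PDS. For comparison, the correlation between 2 libraries within a copy was between 0.568 and 0.889 on chromosome 11 and between 0.495 and 0.820 on chromosome 12. Among the 66 pairs of chromosomes, compared over the same window, the pair of chromosomes 11 and 12 took place 14, in a range from -0.252 to 0.303. At this scale and with equal coordinates, the copies were therefore little more alike than other pairs of arm ends, a description that was not tested.

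Insertions and deletions since the duplication would shift the copies against each other, so chromosome 12 was also moved in steps of 10 kb up to 200 kb in both directions. The correlation was highest, 0.348, when a position on chromosome 12 was compared with one 80 kb further along chromosome 11. With bins of 100 kb, the highest value was found at the same shift, 0.498 over 20 bins. With bins of 20 kb it was 0.235 at another shift of 180 kb, in the opposite direction. A maximum over 41 shifts is higher than a typical value by construction, so neither shift was taken as an alignment of the copies.

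No finer order in common was found at shifts of up to 200 kb. For each 100 kb of the chromosome 11 copy, the sites of at least 3 libraries were compared with those of chromosome 12, and the largest number of site pairs with the same shift within 200 bp was counted. It was between 2 and 5, with a median of 3, in the 20 stretches of the copy, which held 5 to 21 such sites each. In the next 2 Mb of both chromosomes, which served as a comparison, it was between 3 and 5, also with a median of 3. The limits of the duplication were not checked, so the next 2 Mb may hold part of it. This comparison therefore cannot decide whether the copies share an order. Of the 127 and 121 sites of all 4 libraries, 14 on each chromosome overlapped when the coordinates were laid on each other, 11.02% and 11.6%, compared with 8.06% and 6.57% in the next 2 Mb. Equal coordinates do not make such sites counterparts of each other. How many would overlap from the number and length of the sites alone was not estimated. The shares therefore do not show that the copies are more alike than the next 2 Mb.

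The strongest of these 14 pairs had similar values on both chromosomes in K+PEG replicate 1 alone. From 2077428 to 2078059 on chromosome 11, the fold enrichment was 7.33 and 7.11 under K+PEG and 4.34 and 4.63 under K+PDS. From 2076746 to 2078487 on chromosome 12 it was 7.17 and 4.36 compared with 6.51 and 8.04, so that the conditions stood in another order. The second pair differed more in strength. Its chromosome 11 site, from 1780482 to 1781537, had 7.95 and 13.1 compared with 10.4 and 5.03. Its chromosome 12 site, from 1780786 to 1781988, had 4.41 and 7.64 compared with 4.38 and 4.23.

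In the third pair, both sites were stronger under K+PEG. The site from 1016683 to 1017213 on chromosome 11 had 8.51 and 9.67 compared with 3.89 and 3.79. The site from 1017101 to 1017546 on chromosome 12 had 7.76 and 9.47 compared with 6.57 and 3.90. The fourth pair joined the site from 1801048 to 1801800 on chromosome 11, with 5.86 and 7.60 compared with 4.52 and 3.68, to the fifth leading site of chromosome 12. The fifth joined the site from 1085466 to 1086558, with 6.67 and 10.4 compared with 4.90 and 4.33, to that from 1086508 to 1087559, with 3.49 and 6.06 compared with 6.27 and 3.82. Both K+PEG values exceeded both K+PDS values on both chromosomes in the third and the fourth pair, on chromosome 11 alone in the first and the fifth, and on chromosome 12 alone in the second.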

How the data were processed

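The 4 deposited lists hold 10 columns and no header, with starts counted from 0, and positions printed here are the start plus 1. Per the methods, the authors cleaned the reads (Trim Galore), mapped them (BWA, MSU v7.0), required an aligned length above 50 bp, discarded PCR copies (SAMtools) and ran MACS2 on every library. The control given to MACS2 is not given in the sources used here. The deposited fold enrichment is a linear ratio at the summit. The deposited −log10 p-value was used for reads and thresholds, while the −log10 q-value and the score that the authors deposited bear on no result here.

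Reads at each summit were solved from fold enrichment and −log10 p under the Poisson distribution. A whole number, within 0.01 on the −log10 p scale, came out for every peak in the copies. Reads were recovered for 99.9% of 4912 simulated peaks. Python 3.11.15, numpy 2.4.6, scipy 1.17.1 and pandas 2.3.3 were used, and overlaps were checked against bedtools on simulated data. A merged site is a chain of overlapping peaks of the 4 lists, and its value in a library is that of the strongest peak there. Segments belonged to a copy by their midpoint. The rest of a chromosome ended at its last peak.

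Copies were compared within libraries by exact sign-flip tests, and conditions by exact permutation tests over libraries. The named sites were, per copy, the 5 sites of all 4 libraries and the 2 of each condition alone with the highest fold enrichment in their weakest library, the 2 longest empty stretches and the 5 strongest position pairs. The strongest and longest peaks were named after their values were seen. Members, rules and tests were chosen with earlier results of these data known. The alternatives were a −log10 p of at least 5, equal list lengths, membership by overlap, windows from 0 to 2500000 and from 1000000 to 2000000, thinning to equal depth (mean of 20 draws), a reciprocal overlap of 50%, specific peaks against any peak, other bins, a replicate block and leaving out each library. The ratio of K+PEG to K+PDS peaks and its alternatives were added after the data had been seen. The only gene table at hand is on another assembly, so genes were not assigned and no sequence is printed.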

Additional observations from a re-analysis of the deposited data

How the results depend on the processing

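The lower density of the copies than of the rest, the larger share of the K+PEG lists and the higher median fold enrichment of chromosome 11 kept their direction under every alternative, and no p-value could pass 0.05 in any. They ranged from -41.0 to -17.6 peaks per Mb, from 0.309 (window from 1000000 to 2000000) to 1.63 peaks per 1000 and from 0.072 to 0.224. The difference in density between the copies had no stable sign, with 4.88 peaks per Mb at a −log10 p of at least 5, 2.70 in the window from 0 to 2500000, 0.54 after thinning to equal depth, and -4.33 to 3.33 when single libraries were left out. The difference in relative fold enrichment between the conditions ranged from -0.029 to 0.030 when single libraries were left out. The difference in spacing was -277.1 bp at a −log10 p of at least 5, and 17.8 to 319.2 bp when single libraries were left out. The PEG-specific share was 66.2% at a −log10 p of at least 5 (genome 61.2%), 77.1% with a reciprocal overlap of 50% (genome 74.2%) and 24.4% against any peak of the other condition (genome 22.2%). The PDS-specific share was 39.6% with lists cut to equal length (genome 42.3%), 58.2% with a reciprocal overlap (genome 57.6%, so no longer below) and 10.7% against any peak (genome 14.3%). The ratio of K+PEG to K+PDS peaks was 1.60 at a −log10 p of at least 5, 1.16 with lists of equal length and 1.23 to 1.42 without single libraries. The correlation between the copies was 0.275 with bins of 100 kb. The causes were not tested. With the replicate number as a block, the share differed by the same 1.22 peaks per 1000, with p = 0.5 in the exact permutation test, the smallest that this block allows. Deviations of libraries with the same number had a correlation of -0.058 over 7458 bins, so the numbers were not taken as pairs. A place without a peak may hold signal below the threshold, and the lists of shallower libraries are shorter.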
